A study of Mus musculus with 72 samples.

Results

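Glucocorticoid response genes were followed across pituitary, epididymal white adipose tissue (eWAT) and liver of 24 male mice. They are the 9 genes Nr3c1, Fkbp5, Tsc22d3, Sgk1, Zbtb16, Hsd11b1, Mt1, Mt2 and Cdkn1a, taken by gene symbol from the 55416 genes of the count table. The mice were FVB.129P2-Pde6b+ Tyrc-ch/AntJ offspring of dams that ate freely (FED) or received 20% less food from late gestation until weaning (CR20). From 8 weeks of age each mouse ate a diet with 10% fat (CTRL) or a high fat diet with 45% fat (HFD) for 10 weeks, which gave 4 groups of 6 mice, FED-CTRL, FED-HFD, CR20-CTRL and CR20-HFD. The comparisons ask how the diet acted in each dam group and whether the dam's feeding changed the level on each diet. The duration is that which the study's text ties to the sequenced males, since the labels also list a longer one. The labels do not give the litter of a mouse, so littermates in a group would count as separate mice.

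The 72 libraries held 9842813 to 27601208 counts, so that 3 counts, taken as the limit of detection, corresponded to 0.109 to 0.305 CPM, the count scaled to the size of the library. All 9 genes passed the filter on low counts in all 3 tissues. Each tissue carried its own markers, with 10 of 10 adipocyte genes at 10 or more counts in all eWAT libraries, 8 of 8 hepatocyte genes in all liver libraries and 8 of 8 pituitary genes in all pituitary libraries. Some eWAT libraries stood apart, as shown here in CPM of the total count, without TMM. The liver gene Alb reached 505 CPM in the eWAT of FED-HFD mouse 10, 482 CPM in that of CR20-CTRL mouse 5 and 103 CPM in that of FED-HFD mouse 13, whereas the median was 18.8 CPM in the FED-CTRL group. FED-HFD mouse 23 had the lowest summed adipocyte markers of its group, 11936 CPM against a group median of 28250 CPM, and the highest summed macrophage markers, 11319 CPM against 3653 CPM. In CR20-CTRL mouse 5 the adipocyte markers summed to 14616 CPM. Markers of epididymis and testis, which lie beside this fat, summed to 132 CPM in CR20-CTRL mouse 4, 62.3 CPM in CR20-CTRL mouse 5 and 26.7 CPM in CR20-HFD mouse 6, and to at most 0.545 CPM in the other eWAT libraries. In liver the library of CR20-CTRL mouse 5 also stood apart, with Alb at 34338 CPM against a group median of 70208 CPM. Its hepatocyte markers summed to 77788 CPM, against a median of 114272 CPM. Mitochondrially encoded genes held 1.56% of its counts, against a median of 4.86%. Among 180 pairs of libraries within groups, 0 had identical counts.

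Glucocorticoids, corticosterone in the mouse, enter cells and bind the glucocorticoid receptor, which moves to the nucleus and binds DNA. The receptor is encoded by Nr3c1. The enzyme encoded by Hsd11b1 makes active hormone from its inactive form inside liver and fat cells, and Fkbp5 encodes a co-chaperone that is induced by the receptor and lowers its affinity for hormone. Tsc22d3 (GILZ), Sgk1 (a kinase that acts on ion transport), Zbtb16 (PLZF, a transcriptional repressor) and Cdkn1a (p21, an inhibitor of cyclin-dependent kinases) are transcribed in response to the receptor in many cells. Mt1 and Mt2 encode metallothioneins, small proteins that bind zinc and copper, and their genes respond to metals as well as to glucocorticoids.

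Mt1 and Mt2 lie beside each other on chromosome 8, at 94905710 to 94906955 and 94898819 to 94900207 of GRCm39, both on the plus strand, and their upstream sequences are shown because the pair varied together between mice in eWAT and liver. The 250 bases before each start listed in the RefSeq promoter table of GRCm38.p6 span chr8:94178839-94179088 for Mt1 and chr8:94172368-94172617 for Mt2. The listed starts of the genes are not the same distance apart as the gene starts given above. At least 1 window therefore does not end at the gene start given above, and which one was not checked. Capitals mark matches on either strand to TGCACNC or TGCGCNC, forms of the core of the metal response element, or to GNACA and TGTNC with 3 bases between them, a form of the glucocorticoid response element.
Mt1: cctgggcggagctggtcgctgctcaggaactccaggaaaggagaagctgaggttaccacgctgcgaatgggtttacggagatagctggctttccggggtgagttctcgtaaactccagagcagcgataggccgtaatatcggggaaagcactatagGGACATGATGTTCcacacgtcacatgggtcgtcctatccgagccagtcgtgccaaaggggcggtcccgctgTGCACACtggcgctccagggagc
Mt2: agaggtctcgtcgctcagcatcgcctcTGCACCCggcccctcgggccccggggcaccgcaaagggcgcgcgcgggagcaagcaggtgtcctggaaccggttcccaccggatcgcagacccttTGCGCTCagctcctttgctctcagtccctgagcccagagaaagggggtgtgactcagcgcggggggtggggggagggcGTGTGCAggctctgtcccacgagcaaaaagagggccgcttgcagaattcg
The Mt2 window held 3 metal cores, as at least 3 did in 1.26% of the 32851 windows in the table. The Mt1 window held 1 metal core, near its downstream end, and 1 glucocorticoid element, in its second part. At least 1 metal core was found in 21.4% of windows and a glucocorticoid element in 0.387%. Windows were listed for 7 of the 9 genes, 15 windows in all, and not for Nr3c1 and Zbtb16. Of the other windows, 1 of the 6 of Sgk1 held a glucocorticoid element and the window of Hsd11b1 held 1 metal core. These matches are letters in a sequence and no binding was measured.

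By mean level Hsd11b1, Nr3c1 and Fkbp5 each had another order over the tissues. In FED-CTRL mice the level of Hsd11b1 was 293 ± 74.3 CPM per kilobase of exon in liver (mean ± SD, n = 6), 29.4 ± 3.93 in eWAT and 2.05 ± 0.203 in pituitary. Liver exceeded eWAT by a log2 fold change of 3.34 (SE 0.15, adjusted p = 1.58e-15, edgeR) and exceeded pituitary by 7.15 (SE 0.18). The receptor gene was ordered differently, with Nr3c1 at 16.6 ± 2.15 CPM per kilobase in eWAT, 12.0 ± 2.30 in liver and 5.57 ± 1.58 in pituitary. Its liver level was 0.44 log2 units below eWAT (SE 0.16, adjusted p = 0.016), a difference under the minimum of 0.58 used for a call, whereas pituitary was 1.54 log2 units lower than eWAT (SE 0.16). Fkbp5 had the reverse order of the receptor gene, at 11.4 ± 2.33 CPM per kilobase in pituitary, 5.60 ± 2.15 in liver and 3.57 ± 0.619 in eWAT. Pituitary exceeded eWAT by 1.71 log2 units (SE 0.19) and liver exceeded eWAT by 0.67 (SE 0.19), both called. The second call was lost without FED-CTRL mouse 14 (log2 fold change 0.46) and in limma (0.47), under the minimum fold change.

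**Figure D1:**
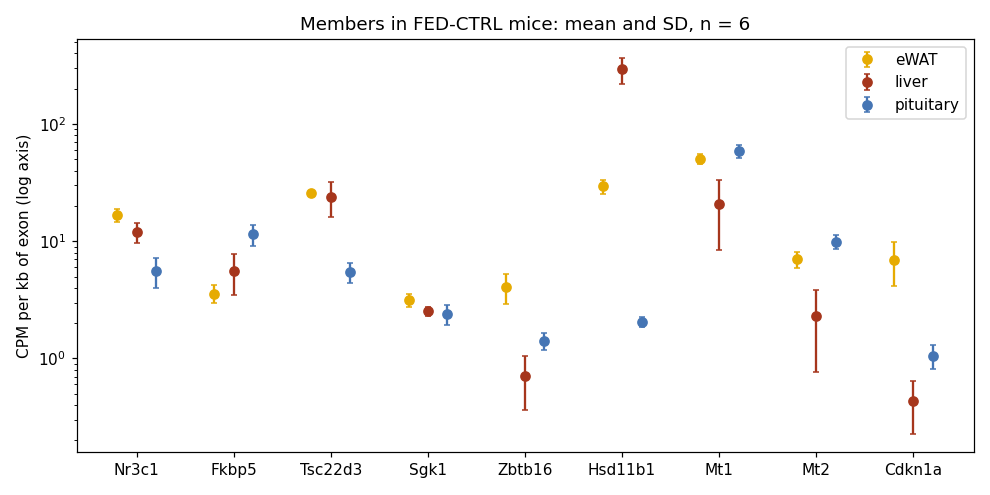
Level of the 9 genes in FED-CTRL mice, as CPM per kilobase of exon on a log axis, by tissue. Points are means of 6 mice and bars are SD, and Hsd11b1 spans the widest range, from 2.05 in pituitary to 293 in liver.

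Among the induced genes, Tsc22d3 was at 25.8 ± 0.902 CPM per kilobase in eWAT and 23.9 ± 7.81 in liver, which did not differ beyond their spread (adjusted p = 0.664), and at 5.46 ± 1.09 in pituitary. Zbtb16 was highest in eWAT, at 4.06 ± 1.14, then 1.42 ± 0.242 in pituitary and 0.703 ± 0.341 in liver, with each step called. Cdkn1a followed the same order, at 6.93 ± 2.82, 1.05 ± 0.239 and 0.436 ± 0.207 CPM per kilobase. Sgk1 lay between 2.39 and 3.17 CPM per kilobase in the 3 tissues and was not called in any pair. The metallothionein genes were lowest in liver, with Mt1 at 20.7 ± 12.3, against 50.6 ± 5.09 in eWAT and 58.9 ± 7.92 in pituitary, and Mt2 at 2.30 ± 1.54, 7.03 ± 1.09 and 9.89 ± 1.30. The eWAT and pituitary levels of Mt1 (adjusted p = 0.335) and Mt2 (0.53 log2 units higher in pituitary, adjusted p = 0.0417) did not differ by enough for a call.

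In all, 6 of the 9 genes were called between liver and eWAT, where 62.7% of the 17255 genes tested were called. The count was 6 of 9 between pituitary and eWAT, beside 69.8% of all genes, and 8 of 9 between liver and pituitary, beside 75.5%. These shares were near those of genes at large. The study's methods give another RNA extraction for liver than for eWAT and pituitary, and tissue and extraction cannot be told apart here.

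In eWAT the only gene of the 9 that was called between groups was Hsd11b1. In FED-CTRL mice it lay between 149 and 212 CPM, with a median of 182 CPM. In FED-HFD mice it lay between 22.9 and 107 CPM, with a median of 67.8 CPM. The lowest value came from mouse 23, whose eWAT library stood apart in its markers. The groups did not overlap, and all 6 FED-HFD mice were below all 6 FED-CTRL mice. The log2 fold change was -1.41 (SE 0.34, adjusted p = 0.00941, edgeR's quasi-likelihood test), and an exact permutation test of the 2 groups gave p = 0.00216, the smallest that the divisions of 12 mice allow. With any 1 mouse left out the log2 fold change stayed between -1.60 and -1.23. Hsd11b1 was the only 1 of the 9 genes called, beside 8.01% of the 15964 genes tested and 1.58% called lower. In bulk tissue, fewer cells of a type and less RNA per cell cannot be told apart.

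In the offspring of CR20 dams on the high fat diet Hsd11b1 lay between 96.2 and 265 CPM, with a median of 144 CPM. Of these 6 mice 5 were above all FED-HFD mice and mouse 45 overlapped them. The log2 fold change of CR20-HFD over FED-HFD was 1.21 (SE 0.34, adjusted p = 0.0184, exact permutation p = 0.00433). It was the only 1 of the 9 genes called, beside 9.73% of all genes and 2.45% called higher. This comparison shares the FED-HFD mice with the one above, so the 2 are not independent. The CR20-CTRL mice spread most widely, from 76.4 CPM in mouse 5 to 408 CPM in mouse 33, with a median of 185 CPM. Within CR20 offspring the diet gave a log2 fold change of -0.40 (adjusted p = 0.945, edgeR), and 0% of all genes were called there. Over the alternatives run it went from -0.70 by limma to -0.076 without CR20-CTRL mouse 33. In limma Hsd11b1 had an unadjusted p under 0.05 there, with an adjusted p of 0.999. The interaction of dam and diet, which tests whether the response to the diet differed between dam groups, was 1.01 log2 units (SE 0.47, adjusted p = 0.258, edgeR) and did not pass, beside 2.42% of genes called.

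**Figure D2:**
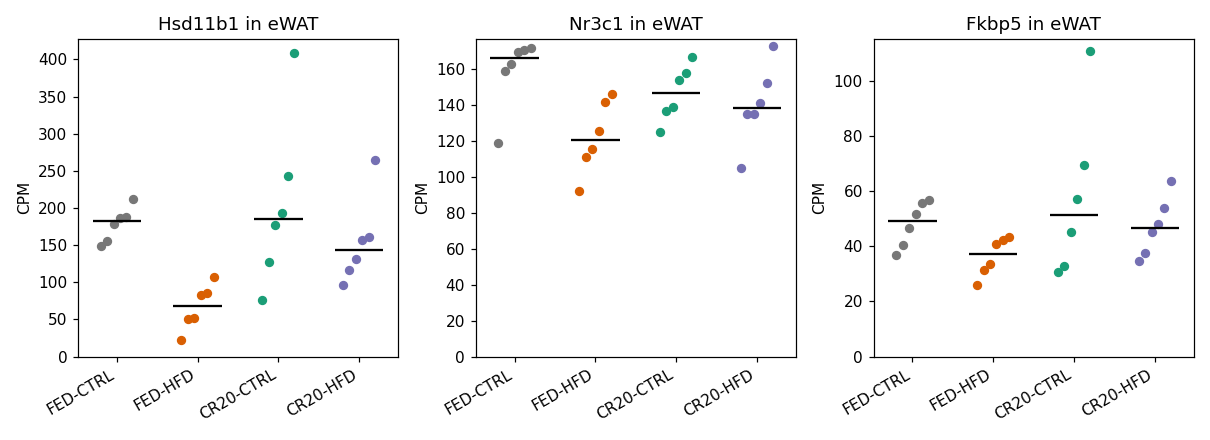
CPM of Hsd11b1, Nr3c1 and Fkbp5 in eWAT by group, with 1 point for each mouse and a line at the median of 6 mice. The FED-HFD mice lie at 22.9 to 107 CPM for Hsd11b1, below all FED-CTRL mice, which lie at 149 to 212 CPM.

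Macrophage markers changed in the same 2 comparisons, in the direction opposite to Hsd11b1, whereas the summed adipocyte markers had similar medians. Of all 15964 genes 1025 were called higher and 253 lower in FED-HFD against FED-CTRL, and 391 higher and 1163 lower in CR20-HFD against FED-HFD. Of 12 macrophage genes 9 rose and 0 fell in FED-HFD against FED-CTRL, with a median log2 fold change of 1.02, where the median over all genes was -0.0016, and 0 rose and 10 fell in CR20-HFD against FED-HFD, with a median of -1.27. The summed macrophage markers, in CPM of the total count, ran from 1525 to 2181 CPM in FED-CTRL, from 2284 to 11319 CPM in FED-HFD and from 1267 to 2178 CPM in CR20-HFD mice. Of 10 adipocyte genes 1, the glucose transporter gene Slc2a4, fell in FED-HFD against FED-CTRL, where the list's median was -0.41, and 1, the resistin gene Retn, rose in CR20-HFD against FED-HFD. The summed adipocyte markers were 28936 to 32362 CPM in FED-CTRL, 11936 to 30402 CPM in FED-HFD and 30336 to 33145 CPM in CR20-HFD mice. Their medians were 29974, 28250 and 30770 CPM. The lowest FED-HFD value was that of mouse 23, and the next was that of mouse 13, at 25379 CPM. No gene of either list was at 0 in all eWAT libraries. The summed adipose stromal markers had medians of 3065 CPM in FED-CTRL, 3814 CPM in FED-HFD and 3216 CPM in CR20-HFD mice. Mitochondrially encoded genes held a median of 3.53%, 2.91% and 3.40% of counts in these groups. FED-HFD mouse 23 had the highest stromal sum of its group, 8555 CPM, and the lowest mitochondrial share, 1.69%. The part of cell makeup in the Hsd11b1 result was not tested, nor was that of the mitochondrial share. Of the 8 hepatocyte genes 3, Apoa1, Ttr and Ahsg, were called higher in FED-HFD, and mouse 10 held most Apoa1, at 108 CPM. The summed hepatocyte markers ran the other way, with medians of 155 CPM in FED-CTRL and 60.9 CPM in FED-HFD mice. They were 174 CPM in CR20-HFD and 456 CPM in CR20-CTRL mice. FED-HFD mice ranged from 5.81 CPM in mouse 23 to 885 CPM in mouse 10. At the ratio of Hsd11b1 to Alb in the liver of the same mouse, the Alb counts in the eWAT of mouse 10 would go with 7.42 CPM of Hsd11b1, of the 84.5 CPM measured without scaling, and those of CR20-CTRL mouse 5 with 18.2 of 90.9 CPM. Without mice 5, 10 and 13 the log2 fold changes were -1.43 (adjusted p = 0.0121) and 1.22 (adjusted p = 0.0230) for the 2 comparisons. Without mice 4, 5 and 6, those with epididymis and testis markers, they were -1.42 (adjusted p = 0.00733) and 1.20 (adjusted p = 0.0165). The Hsd11b1 gene, at chromosome 1, 192903918 to 192946489 of GRCm39 on the minus strand, overlaps Lamb3 on the other strand, and the sources used here do not state whether counting used strand.

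The receptor gene itself moved less. Nr3c1 lay between 119 and 172 CPM in FED-CTRL mice (median 166 CPM) and between 92.0 and 146 CPM in FED-HFD mice (median 120.5 CPM). The ranges overlapped through FED-CTRL mouse 24, the lowest of its group. Mouse 23 was the lowest of the FED-HFD mice. The log2 fold change was -0.38 (SE 0.12, adjusted p = 0.0429, edgeR), which passed the adjusted p but not the minimum fold change, and the exact permutation p was 0.0195. In CR20-HFD mice Nr3c1 lay between 105 and 173 CPM, with a median of 138 CPM, and overlapped both groups.

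No other gene was called in eWAT. In FED-HFD against FED-CTRL 4 of the 9 genes had an unadjusted p under 0.05 in edgeR, beside 25.7% of all genes. Limma had 6. Sgk1 had a median of 22.4 CPM in FED-CTRL and 33.5 CPM in FED-HFD mice, a log2 fold change of 0.51 (SE 0.22, adjusted p = 0.137), and the highest value, 48.9 CPM, came from FED-HFD mouse 23. Mt1 had medians of 78.2 and 96.8 CPM (log2 fold change 0.35, SE 0.16, adjusted p = 0.155), with 5 of the 6 FED-HFD mice above all FED-CTRL mice. Mt2 had medians of 8.37 and 11.2 CPM (log2 fold change 0.51, SE 0.29, adjusted p = 0.264), with 4 of the 6 above all FED-CTRL mice. Fkbp5 had medians of 49.2 and 37.2 CPM in these groups, and 51.2 and 46.8 CPM in CR20-CTRL and CR20-HFD mice. Its highest value, 111 CPM, came from CR20-CTRL mouse 5. Cdkn1a had medians of 44.0 CPM in FED-CTRL and 80.3 CPM in FED-HFD mice, with ranges of 35.9 to 93.1 CPM and 46.1 to 101 CPM that overlapped. For FED-HFD against FED-CTRL the exact permutation p, unadjusted, was 0.0130 for Mt1, 0.0303 for Fkbp5, 0.0411 for Mt2 and 0.0433 for Cdkn1a. It was 0.0714 for Sgk1, 0.0909 for Tsc22d3 and 0.725 for Zbtb16. Between CR20-CTRL and FED-CTRL mice 0 of 9 genes were called by edgeR, 0 had an unadjusted p under 0.05, and limma and DESeq2 also called 0, beside 0% of all genes.

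Over both dam groups the diet gave Hsd11b1 a log2 fold change of -0.91 (SE 0.24, adjusted p = 0.0840), beside 0.175% of genes called, and over both diets the dam group gave 0.70 (SE 0.23, adjusted p = 0.0705), beside 3.96%. Neither passed in edgeR, and both passed in limma and in DESeq2.

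Related genes in eWAT were described by lists, and their counts stand beside the 8.01% of all genes called in FED-HFD against FED-CTRL, 1025 higher and 253 lower of 15964. Of 22 other glucocorticoid targets 20 were tested, and 1 rose and 1 fell, which is near the share of all genes. The list's median log2 fold change was 0.05, where that of all genes was -0.0016. Pdk4, the kinase that blocks pyruvate dehydrogenase, rose by 1.71 log2 units (SE 0.25, adjusted p = 0.00212), and Lpin1, a phosphatidate phosphatase, fell by 0.69 (SE 0.22, adjusted p = 0.0441). In CR20-HFD against FED-HFD Pdk4 fell by 0.77 (SE 0.25, adjusted p = 0.0385) and was the only 1 of the 20 called, beside 9.73% of all genes. Of 18 p53 targets and cyclin-dependent kinase inhibitors 3 rose in FED-HFD, the apoptosis gene Bax (log2 fold change 0.62), Plk2 (1.19) and Gdf15 (2.13), and 1 fell, the inhibitor gene Cdkn2c (-0.96), with a median of 0.03 over the list. Among 9 genes of steroid supply and clearance, 6 tested, Abcb1a, which encodes a transporter that exports steroids, was lower in FED-HFD (log2 fold change -0.62, SE 0.18, adjusted p = 0.0307). Of 16 receptor chaperones and coregulators and of 5 tested metallothionein and zinc genes 0 were called by edgeR, with 2 and 1 at an unadjusted p under 0.05. Of 14 clock genes 1 rose and 5 fell in the same comparison, with a median of -0.53 over the list, where 1.58% of all genes fell.

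In liver Mt1 had the largest fold change of the 9 genes in FED-HFD against FED-CTRL, without a call. It lay between 7.28 and 36.0 CPM in FED-CTRL mice (median 18.045 CPM) and between 17.2 and 201 CPM in FED-HFD mice (median 49.9 CPM). Mouse 11, at 201 CPM, and mouse 12, at 174 CPM, stood far above the other FED-HFD mice, of which the next was mouse 40 at 64.2 CPM. The log2 fold change was 2.24 (SE 0.58, adjusted p = 0.214, edgeR) and was not called. Mt2 lay between 0.534 and 3.35 CPM in FED-CTRL and between 0.552 and 13.5 CPM in FED-HFD mice, again with mouse 11 and mouse 12 highest. Its log2 fold change was 1.91 (SE 0.79, adjusted p = 0.623). In CR20-CTRL mice Mt2 lay between 0.056 and 7.66 CPM, and its lowest value, in mouse 49, was 1 count, under the limit of detection. In CR20-HFD mice Mt1 lay between 11.7 and 63.2 CPM and Mt2 between 0.281 and 3.97 CPM. Against FED-HFD the log2 fold changes were -1.48 for Mt1 and -1.94 for Mt2, with adjusted p at 1.00 for both, and limma gave -0.63 for Mt1. Over both dam groups Mt1 was 1.40 log2 units higher on the high fat diet (SE 0.40, adjusted p = 0.0750), not called by edgeR, whereas limma (adjusted p = 0.0158) and DESeq2 (adjusted p = 0.0306) called it.

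**Figure D3:**
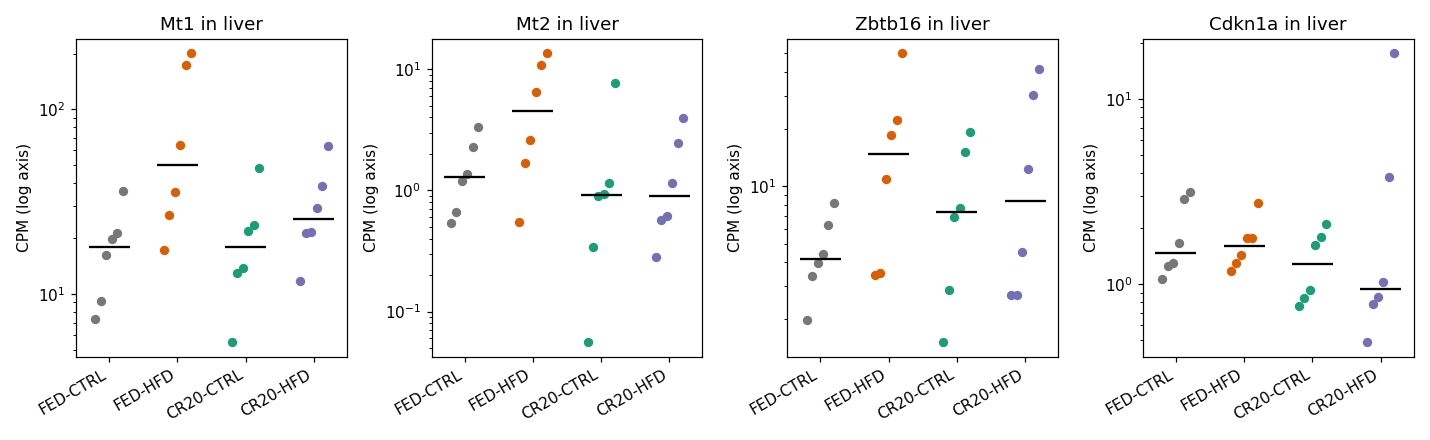
CPM of Mt1, Mt2, Zbtb16 and Cdkn1a in liver by group on log axes, with 1 point for each mouse and a line at the median of 6 mice. Mt1 of FED-HFD mice 11 and 12 lies at 201 and 174 CPM, and Cdkn1a of CR20-HFD mouse 7 at 17.7 CPM.

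In liver Zbtb16 varied widely in all groups but FED-CTRL, and Cdkn1a was low in all but 1 mouse. The SD of log2 CPM of Zbtb16 was 0.69 in FED-CTRL, 1.52 in FED-HFD, 1.36 in CR20-CTRL and 1.72 in CR20-HFD mice. CR20-CTRL mice, on the control diet, ran from 1.52 to 19.4 CPM. Zbtb16 lay between 1.98 and 8.14 CPM in FED-CTRL and between 3.44 and 50.1 CPM in FED-HFD mice, where 4 mice were above all FED-CTRL mice and mouse 11 and mouse 40 were within them. The log2 fold change was 1.95 (SE 0.71, adjusted p = 0.521). Mouse 11 was thus the highest of its group for Mt1 and the lowest for Zbtb16. Cdkn1a lay between 0.760 and 2.12 CPM in CR20-CTRL mice and between 0.486 and 17.7 CPM in CR20-HFD mice, with a median of 0.939 CPM. Mouse 7 alone gave 17.7 CPM, the fitted log2 fold change was 1.64 (SE 0.64, adjusted p = 0.404), and the exact permutation test of the log2 values gave p = 0.641. Without mouse 7 the log2 fold change was 0.05 (adjusted p = 0.987, edgeR), and limma gave 0.91 with all mice.

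The other genes were not called in liver either. Hsd11b1, which fell in eWAT, had liver medians of 987 CPM in FED-CTRL and 1064 CPM in FED-HFD mice. Fkbp5 was lower in CR20-CTRL than in FED-CTRL mice (medians 27.9 and 41.9 CPM, log2 fold change -0.69, SE 0.29, exact permutation p = 0.0281), with an adjusted p of 0.999. Sgk1 was 0.33 log2 units lower in FED-HFD than in FED-CTRL mice (SE 0.14, adjusted p = 0.636), with 4 of 6 mice below all controls. Across the 7 comparisons in liver 0 of 9 genes were called by edgeR. The count at an unadjusted p under 0.05 was 4 in FED-HFD against FED-CTRL, 1 in CR20-HFD against CR20-CTRL, 2 in CR20-HFD against FED-HFD and 1 in CR20-CTRL against FED-CTRL, beside 6.66%, 9.57%, 3.58% and 2.17% of all 13787 genes. The shares of these genes called were 0.109% and 0.522% for the first 2 of these comparisons, 0% for the other two, 1.26% for the diet over both dam groups, and 0% for the interaction and for the dam over both diets. DESeq2 called Mt1 in FED-HFD against FED-CTRL (adjusted p = 0.0442).

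In pituitary the 9 genes moved within 0.36 log2 units in the 4 comparisons of groups and 0 were called by edgeR, limma or DESeq2. The largest difference was in CR20-CTRL against FED-CTRL mice, where 8 of 9 fold changes were above 0 and 3 had an unadjusted p under 0.05, as did 17.3% of all genes. In FED-HFD against FED-CTRL, which shares the FED-CTRL mice, 9 of 9 were above 0, by 0.25 log2 units at most. Limma gave 8 of 9 there, by 0.32 at most, and the fit with the range of the animal number gave 7. The median log2 fold change of all genes was 0.0063 and 0.0005 in these 2 comparisons, and their share above 0 was not computed. Nr3c1 had a median of 47.5 CPM in FED-CTRL mice (29.0 to 71.8 CPM) and of 60.8 CPM in CR20-CTRL mice (50.2 to 80.0 CPM), a log2 fold change of 0.36 (SE 0.14, adjusted p = 0.202), which was 0.24 without FED-CTRL mouse 16 (adjusted p = 0.432) and 0.50 without FED-CTRL mouse 42 (adjusted p = 0.0371). Tsc22d3 had medians of 37.4 and 46.6 CPM (0.30, SE 0.12, adjusted p = 0.209). Hsd11b1 had medians of 11.8 and 13.3 CPM (0.22, SE 0.098, adjusted p = 0.253), and 5 of 6 CR20-CTRL mice were above all FED-CTRL mice (exact permutation p = 0.00649). In FED-HFD against FED-CTRL, CR20-HFD against FED-HFD and CR20-HFD against CR20-CTRL 0 of 9 genes had an unadjusted p under 0.05 in edgeR, beside 9.64%, 6.77% and 7.28% of all genes. Limma had 1 in each of the first 2 of these, Tsc22d3 and Cdkn1a, and DESeq2 had 1, Tsc22d3, in the first. Of all 16657 genes 0.006% were called for the diet over both dam groups and 0% in the other 6 comparisons. Of 6 tested genes of the corticotroph axis, which includes the hormone precursor gene Pomc, 0 were called in these comparisons by edgeR, and 1 had an unadjusted p under 0.05 in CR20-CTRL against FED-CTRL, Tbx19 (log2 fold change -0.24, adjusted p = 0.137).

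**Figure D4:**
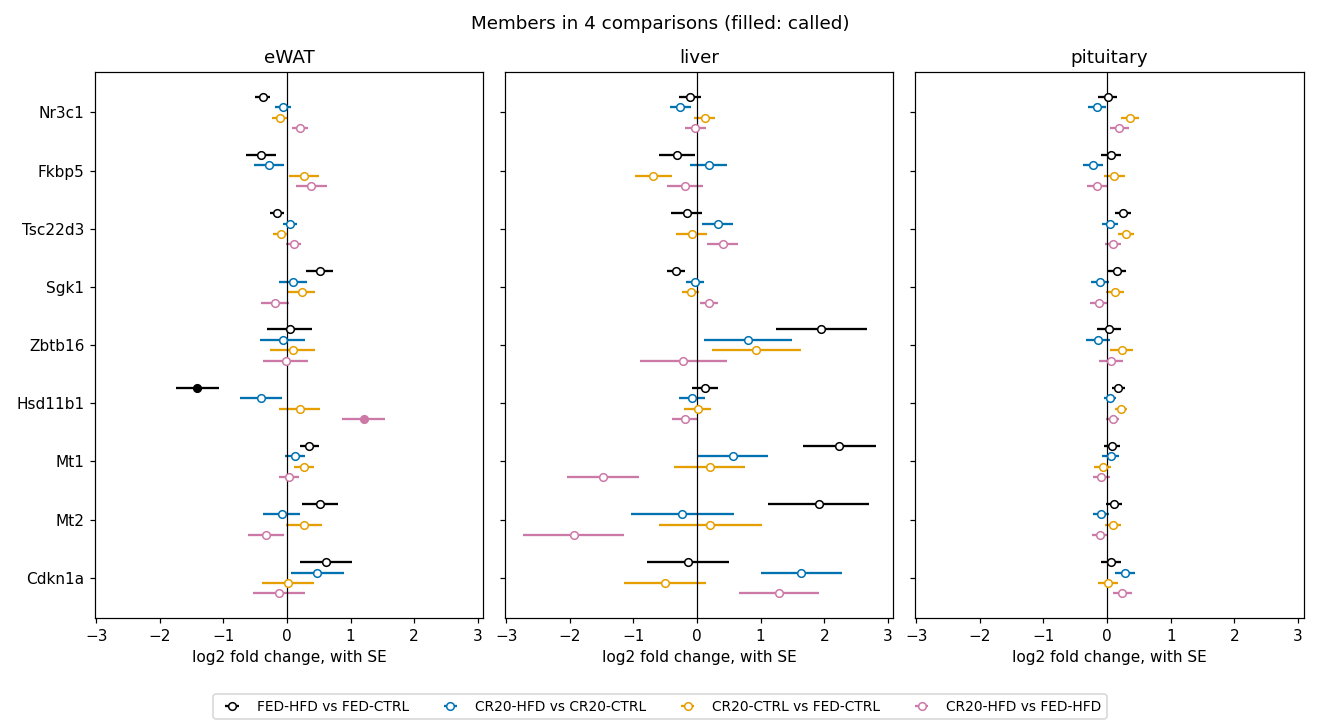
Log2 fold change with its SE for the 9 genes in 4 comparisons, by tissue, with filled points for calls (adjusted p up to 0.055, fold change of 0.58 log2 units or more in either direction). Hsd11b1 in eWAT holds both filled points, at -1.41 and 1.21, and the pituitary values stay within 0.36 of 0.

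The same mouse gave all 3 tissues, so it was asked whether a mouse with a high level in 1 tissue had a high level in another. Values were taken as log2 CPM minus the group mean over 24 mice, and 27 relations were computed. Fkbp5 was positive in all 3 pairs, with r = 0.52 between eWAT and liver (permutation p = 0.0121, rho = 0.45, permutation p = 0.0435), r = 0.46 between eWAT and pituitary (permutation p = 0.0404, rho = 0.49, p = 0.0291) and r = 0.47 between liver and pituitary (permutation p = 0.0306, rho = 0.50, p = 0.0213). Adjusted over all genes measured in both tissues, p was 0.372, 0.660 and 0.481, and none passed. Without the 2 mice farthest from the median of the first tissue r was 0.34, 0.39 and 0.34, with permutation p = 0.127, 0.109 and 0.182, so none passed without those mice. The groups were not alike. Between eWAT and liver r of Fkbp5 was highest among the CR20-CTRL mice (0.92, n = 6) and lowest among the FED-HFD mice (0.026), with 0.51 for FED-CTRL and 0.43 for CR20-HFD. Between eWAT and pituitary it was highest among the CR20-CTRL mice again (0.86) and lowest among the CR20-HFD mice (-0.057), with 0.57 for FED-HFD and 0.18 for FED-CTRL, and between liver and pituitary it lay from 0.21 to 0.76. The difference between groups was not tested. CR20-CTRL mouse 5, whose eWAT and liver libraries stood apart, was the highest of its group for Fkbp5 in both, at 111 and 42.7 CPM. Without this mouse the pooled r between eWAT and liver was 0.43. With any 1 mouse left out the pooled r stayed within 0.43 to 0.58, 0.38 to 0.55 and 0.39 to 0.56. With the range of the animal number also subtracted r was 0.37, 0.31 and 0.12. The labels do not say what the animal number marks.

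Mt2 had r = 0.61 between eWAT and pituitary (permutation p = 0.00743, rho = 0.40, p = 0.0762, adjusted p = 0.326), and r = 0.34 without CR20-CTRL mice 47 and 5 (permutation p = 0.132). Within groups it ran from -0.27 (FED-HFD) and 0.28 (FED-CTRL) to 0.77 (CR20-HFD) and 0.92 (CR20-CTRL). Zbtb16 had r = 0.44 between eWAT and pituitary (permutation p = 0.0301, rho = 0.59, p = 0.00544, adjusted p = 0.669), and r = 0.75 without FED-HFD mice 23 and 10 (permutation p = 0.00033). Within groups it was 0.033 for FED-HFD and 0.65 to 0.94 for the other groups. Of the 9 genes 1, Fkbp5, reached r = 0.5 between eWAT and liver, as 3.18% of 12801 genes did. Between eWAT and pituitary 1, Mt2, did so beside 2.55% of 14372 genes, and between liver and pituitary 0 did so beside 4.05% of 12595 genes. The median r over all genes was 0.0053, 0.028 and 0.068 in these pairs of tissues. Nr3c1 had r = -0.14, -0.02 and -0.16, and Hsd11b1 had r = 0.07, -0.13 and 0.14. Without the 2 farthest mice Hsd11b1 had r = 0.34, -0.086 and 0.50 (permutation p = 0.0159 for the last, between liver and pituitary, without CR20-HFD mouse 32 and CR20-CTRL mouse 4).

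**Figure D5:**
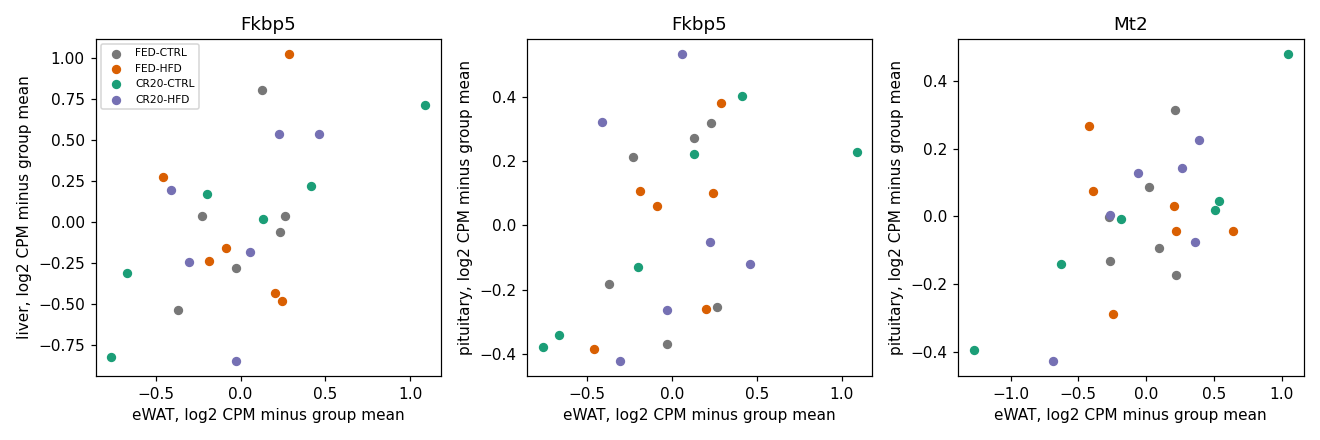
Log2 CPM minus the group mean in 2 tissues of the same mouse, for Fkbp5 in eWAT and liver, Fkbp5 in eWAT and pituitary, and Mt2 in eWAT and pituitary, with 1 point for each of 24 mice. Mice high in 1 tissue tend to be high in the other, with r of 0.52, 0.46 and 0.61 over all groups, more so in CR20-CTRL mice (0.92, 0.86 and 0.92) and not in every group, and CR20-CTRL mouse 5 lies farthest right in each panel.

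Within a tissue the 36 pairs of these genes were compared the same way, 108 relations in all, of which 18 had a permutation p under 0.05. The share among pairs of other genes was not computed, and ranks among all genes are given for Fkbp5 and Mt2. Mt1 and Mt2 went together in eWAT (r = 0.90, rho = 0.84, permutation p = 1e-05, the smallest that the permutations give, for r and 5e-05 for rho) and in liver (r = 0.91, rho = 0.92, permutation p = 1e-05 for both). Without the 2 farthest mice r was 0.82 and 0.89. In pituitary r was 0.32 (rho = 0.30, permutation p = 0.234 and 0.194) and 0.0026 without the 2 farthest mice. Mt1 was the gene most like Mt2 of all genes tested in both tissues, whereas in pituitary the 3 most alike were Cfap276 (r = 0.76), Cables2 (0.74) and Hemk1 (0.74). After Mt1 came Golph3 (0.80) and Wdr73 (0.74) in eWAT and Cradd (0.85) and Csrp3 (0.80) in liver. Fkbp5 went with Mt2 in eWAT (r = 0.71, rho = 0.61, permutation p = 0.00466 and 0.00954) and in liver (r = 0.64, rho = 0.59, permutation p = 0.00264 and 0.00662), and r was 0.58 and 0.61 without the 2 farthest mice. By r with Mt2, Fkbp5 ranked 10 of 15963 genes in eWAT and 547 of 13786 in liver. Liver Mt2 was low, with 1 count in CR20-CTRL mouse 49, under the limit of detection. That mouse was also the lowest of its group for liver Fkbp5 and Mt1. It was not among the 2 mice left out for Fkbp5 in liver, which were mice 12 and 14. In pituitary Fkbp5 went with Zbtb16 (r = 0.57, rho = 0.62, permutation p = 0.00988 and 0.00458, r = 0.58 without the 2 farthest mice), which ranked 436 of 16656 genes by r with Fkbp5.

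The receptor gene and Sgk1 ran in opposite directions in eWAT, with r = -0.74 and rho = -0.69 (permutation p = 0.00013 and 0.00135) and r = -0.70 without the 2 farthest mice. FED-HFD mouse 23 and CR20-CTRL mouse 5, whose eWAT libraries stood apart, were each lowest of their group for Nr3c1 and highest for Sgk1. Neither was among the 2 mice left out, which were mice 24 and 7. Hsd11b1 and Cdkn1a also ran in opposite directions in eWAT, with r = -0.57 and rho = -0.56 (permutation p = 0.00360 and 0.00783) and r = -0.66 without the 2 farthest mice. In liver Nr3c1 and Hsd11b1 were high in the same mice (r = 0.67, rho = 0.57, permutation p = 0.00219 and 0.00994, r = 0.49 without the 2 farthest mice). The genes most like Fkbp5 over the 24 mice were Cetn4 (r = 0.83) and Slc12a2 (0.83) in eWAT, St3gal5 (0.83), Cradd (0.77) and Gm4129 (0.75) in liver, and Rps6ka1 (0.86), Arhgef18 (0.83) and Ephx1 (0.82) in pituitary. In liver CR20-CTRL mouse 5, whose library stood apart, was the highest of its group for Nr3c1, Fkbp5, Mt1, Mt2 and Cdkn1a. Values of 1 library share its depth and its cell makeup, and their part in these relations was not tested.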

How the data were processed

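RNA was sequenced from 3 tissues of 24 mice. The authors trimmed reads with Trimmomatic, aligned them to GRCm39 with STAR and counted reads per gene with Subread, and deposited raw counts, which are used here as deposited. Libraries are named by group and animal number. Names came from GENCODE M39 (54749 of 55416 genes; the others held 0.0281% of counts). Genes were filtered with filterByExpr, scaled by TMM and tested within each tissue by edgeR's quasi-likelihood test (R 4.3.3, edgeR 4.0.16) over the 4 groups, with Benjamini-Hochberg adjustment over all genes tested. Calls required an adjusted p up to 0.055 and a fold change of 0.58 log2 units or more in either direction, as in the study. The study's own test, limma's voom with quality weights (limma 3.58.1), and DESeq2 1.42.0 were alternatives. CPM of the 9 genes uses TMM, that of Alb and of other marker genes the total count alone, and log2 CPM a prior count of 2. Correlations used 100000 permutations of mice within groups, two-sided, and their p adjusted over all genes came from a linear model with group. Exact permutation tests were two-sided. The genes and lists were chosen with earlier results of these data known. Named genes are the 9 members, the called genes of other lists (at most 5 per list and comparison) and the 3 genes most like Fkbp5 and Mt2, of which 1 is not reported here. The methods name more than 1 library kit. Fits and correlations were tested on simulated data.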

Additional observations from a re-analysis of the deposited data

Results flagged for a closer look

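Among the 108 sets of 6 mice, from 9 genes, 3 tissues and 4 groups, 5 held a mouse whose log2 CPM lay far from the others of its group, where chance alone gives about 1 in 20 sets. In eWAT, FED-CTRL mouse 24 was lowest for Nr3c1, at 119.2 CPM with the next mouse at 158.8 CPM, and highest for Cdkn1a, at 93.1 CPM with the next at 49.8 CPM. In liver, CR20-HFD mouse 32 was highest for Hsd11b1, at 1514 CPM with the next at 994.8 CPM. In pituitary, CR20-HFD mouse 46 was lowest for Tsc22d3, at 36.8 CPM with the next at 47.3 CPM, and CR20-CTRL mouse 48 was highest for Cdkn1a, at 10.3 CPM with the next at 6.96 CPM.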

How the results depend on the processing

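Hsd11b1 in eWAT was called in both comparisons under all 33 alternatives run for each, with log2 fold changes from -1.60 to -1.23 in FED-HFD against FED-CTRL and from 0.98 to 1.39 in CR20-HFD against FED-HFD (adjusted p up to 0.0254 and 0.0538). With no fold minimum 2 of the 9 genes were called in FED-HFD against FED-CTRL, beside 1771 of all 15964. For the diet over both dam groups and for the dam over both diets in eWAT, limma, DESeq2 and the fits without mice 5, 10 and 13 and without mice 4, 5 and 6, alternatives chosen after seeing the data, each called 1 gene, Hsd11b1. Leaving out a mouse gave 0 to 1 in both, with 1 without FED-HFD mouse 40 or CR20-CTRL mouse 5, and for the dam also without CR20-CTRL mouse 47. In liver DESeq2 called 1 gene in FED-HFD against FED-CTRL, and limma and DESeq2 1 for the diet over both dam groups. Leaving out a mouse gave 0 to 1 there, with 1 without FED-HFD mouse 10, CR20-CTRL mouse 5 or CR20-HFD mouse 32. The genes with r of at least 0.5 between eWAT and liver numbered 0 by rho, without TMM, without the 2 farthest mice and with the animal-number range subtracted, and 0 to 2 with a mouse left out. Between eWAT and pituitary they numbered 2 without TMM and 0 to 2 with a mouse left out, being 0 without CR20-CTRL mouse 5 or 47. Between liver and pituitary they numbered 1 by rho, 2 without the 2 farthest mice and 0 to 1 with a mouse left out. With the mouse as a replicate block, the pairing being that of tissues of 1 animal, 6, 6 and 8 of the 9 genes were called between tissues, and no call changed. Limma called 5 between liver and eWAT, and DESeq2 size factors gave 7 between pituitary and eWAT. No direction reversed among the members with an unadjusted p under 0.05. Others near 0 did change sign: in CR20-CTRL against FED-CTRL in eWAT 7 of 9 fold changes were above 0, but 5 by limma and 3 without mice 4, 5 and 6. The cause of these shifts was not tested.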
